A study of Mus musculus with 23 samples.

Results

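The genes described here mark the cells that build brain vessels, 22 of them endothelial cells and 12 of them mural cells, which are the pericytes of capillaries and the smooth muscle cells of arteries and arterioles. These 34 members of the 39017 genes measured were chosen by name as known markers, with earlier results of these data known. The shares over all genes given beside their counts are therefore descriptive. They were read in hippocampal poly(A) RNA from 23 mouse libraries, 11 wild-type (WT) and 12 labelled as knockout of neurensin 2 (gene Nrsn2). The study asked how chronic social defeat stress (CSDS) changes hippocampal gene expression in each genotype. In CSDS a mouse spends 5 min a day for 10 days with an aggressive CD-1 mouse, a different animal each day, and otherwise lives beside it behind a clear perforated wall.

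The groups with agreeing labels number 4, each with 5 libraries: WT controls (numbered 6 to 10), WT mice after CSDS (numbered 1 to 5), knockout-labelled controls (6 to 10) and knockout-labelled mice after CSDS (1 to 5). Strain, age, sex and the design of the Nrsn2 allele were not given in the sources used here. Nrsn2 itself was not lower under the knockout label, with means of 29.1 RPKM in WT controls and 31.2 RPKM in knockout-labelled controls, so the text speaks of libraries labelled knockout throughout. RPKM counts the reads of a gene per kilobase of its length, divided by the size of the library. Depth, estimated from low values, ran from 25.66 to 55.68 M reads. Means are given ± SD over 5 libraries, and differences as log2 fold changes ± SE on the scale log2(RPKM + 0.5), which understates the change of low genes.

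Brain endothelial cells form the blood-brain barrier: tight junctions seal the gaps between them, and transporters in their membranes choose what passes. Pericytes sit on the capillary wall and are needed for this barrier, while the contractile proteins of smooth muscle cells set the width of arterioles and so the local blood flow. Wnt, Notch, PDGF and VEGF signals between neurons, glia, endothelial and mural cells shape and keep these vessels.

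Some libraries stand apart. Control 10 of each genotype had the female pattern, with Xist at 56.5 and 48.2 RPKM and the Y-linked Ddx3y at 0.163 and 0.499 RPKM. Every library of the CSDS groups had Ddx3y of at least 9.73 RPKM, so sex was not balanced between control and CSDS. Control 10 of WT held the highest value of its group for 16 of the 22 endothelial and 10 of the 12 mural members. Knockout-labelled control 10 was the highest for 5 endothelial and 0 mural members and the lowest for 7 and 5. Under that label control 9, with Ddx3y at 10.6 RPKM, was the highest for 7 endothelial and 10 mural members. WT control 6 was the lowest for 14 endothelial members and had choroid plexus markers at a summed 76.6 RPKM, against 1850 to 5720 RPKM in the other WT controls. Knockout-labelled control 7 was the lowest of its group for 13 endothelial and 6 mural members. It had the lowest depth of all libraries, 25.66 M reads. Its summed choroid plexus and fibroblast markers, 734 and 83.3 RPKM, were the lowest of its group. WT CSDS 3 had red blood cell markers at a summed 2810 RPKM, against 559 to 699 RPKM in the other WT libraries after CSDS, and it was the highest of its group for 14 endothelial and 8 mural members.

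For a further 3 libraries the labels disagree. The titles of WT 9B and of libraries 11 and 10B of the knockout label say control, whereas their treatment field says CSDS. The design text counts 5 controls and 6 to 7 mice after CSDS, as in the treatment field, while the authors' mean control RPKM includes these libraries with the controls. They were left out of the comparisons, and the counts with them under either label are given beside each. Cldn5 stood at 15.4 RPKM in WT 9B, between WT after CSDS (11.8 to 14.5 RPKM) and the WT controls (16.2 to 19.7 RPKM). Libraries 11 and 10B each held 22.7 RPKM of Cldn5. That was within the knockout-labelled controls (19.8 to 25.8 RPKM), with those after CSDS at 10.6 to 14.8 RPKM. Gkn3 stood at 1.33 RPKM in WT 9B, within the WT controls (1.11 to 1.66 RPKM). It was 0.91 RPKM in library 11 and 1.08 RPKM in library 10B, below both knockout-labelled groups (from 1.93 and 2.24 RPKM). The summed endothelial members came to 183 RPKM in WT 9B, 188 RPKM in library 11 and 194 RPKM in library 10B, so that of these only 10B lay within a group range of its genotype label, that of the controls (190 to 233 RPKM). The summed mural members came to 67.9 RPKM in WT 9B, within the WT controls (64.2 to 96.4 RPKM) and below WT after CSDS (80.9 to 107 RPKM). In libraries 11 and 10B the mural sums were 71.0 and 71.3 RPKM, below the knockout-labelled controls (76.1 to 108 RPKM) and within those after CSDS (67.5 to 88.2 RPKM). The difference between 2 libraries relative to sampling noise was smallest for WT 9B against WT control 9 (1.63), and at least 4.81 against WT after CSDS. For library 11 it was smallest against knockout-labelled control 7 (2.25), and at least 6.04 against those after CSDS. For library 10B it was smallest against library 11 (2.37), then control 7 (3.36), and at least 4.38 against those after CSDS. Xist stood at 1.60 RPKM in library 11 and 1.45 RPKM in library 10B, with Ddx3y at 9.99 and 8.75 RPKM. All other libraries with Ddx3y of at least 9.66 RPKM had Xist of at most 0.0618 RPKM. Where this Xist RNA came from and which label is right were not tested.

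Promoter sequence is shown for Myl9 and Acta2, which encode contractile proteins, because smooth muscle genes are known to be switched on through the CArG box, the site bound by serum response factor. RefSeq (GRCm38.p6, the same build as mm10) had a window of 250 bases before the gene start for 25 of the 34 members. Both strands were searched for the CArG box and, in a search added after that one, for the CArG box with 1 mismatch in its central A/T run. The Myl9 sequence (chr2:156775214-156775419, + strand) runs up to the start of the Myl9 exon in the GENCODE annotation. Capitals mark an exact CArG box 161 to 152 bases before the RefSeq start and a match with 1 mismatch 99 to 90 bases before it. The Acta2 stretches (chr19:34255438-34255467 and chr19:34255388-34255417, − strand) are the matches with 1 mismatch 84 to 75 and 34 to 25 bases before the RefSeq start, each with its flanks. Both lie inside the Acta2 exon as GENCODE draws it.
Myl9: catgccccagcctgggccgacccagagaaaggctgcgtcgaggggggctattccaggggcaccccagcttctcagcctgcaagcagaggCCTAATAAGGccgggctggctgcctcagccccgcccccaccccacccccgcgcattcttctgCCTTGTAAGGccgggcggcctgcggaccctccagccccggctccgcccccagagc
Acta2, farther match: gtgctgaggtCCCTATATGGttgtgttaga
Acta2, nearer match: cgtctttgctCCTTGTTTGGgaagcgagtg

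Of the 8 mural members with a window, Myl9 was the only gene with an exact CArG box, and Myl9 and Acta2 were the 2 genes with a match of 1 mismatch. Tagln, Myh11, Pdgfrb and Higd1b had no window and were not searched. Of 13 other smooth muscle genes with a window, 2 held the exact box (Cnn2 and Srf) and 1 the box with 1 mismatch (Pcp4l1). Of the 17 endothelial members with a window, none held the exact box and 5 held the box with 1 mismatch (Egfl7, Eng, Kdr, Ocln and Slco1a4). Over all 32851 RefSeq windows of this length, 1.47% held the exact box and 7.24% the box with 1 mismatch. The core CGGAAG of the ETS factors, which drive many endothelial genes, was found in 1 of 17 endothelial members with a window, Tie1, and in 13.6% of all windows. A match describes the letters of the window and does not show a site in use.

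All 34 members were detected. Levels, compared per length in RPKM as the mean of the 4 group means, were highest for Vtn (29.3 RPKM), Slc2a1 (28.9 RPKM), Ly6c1 (27.9 RPKM) and Itm2a (26.3 RPKM), whose ranges over libraries overlapped. Rgs5 followed at 21.9 RPKM, and the lowest were Emcn at 1.08 RPKM, Anpep at 0.967 RPKM and Cnn1 at 0.234 RPKM. Cnn1, the smooth muscle calponin, had between 0.106 and 0.437 RPKM in the 20 libraries and did not pass the filter of a mean of 0.5 RPKM, so 33 members were tested. In bulk tissue, fewer vascular cells and less of an RNA per cell cannot be told apart.

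In WT mice, CSDS went with higher RNA of the contractile mural genes and a mixed picture in the endothelium. Of the 33 members, 10 passed the test at an adjusted p of 0.05 over all genes, against 22.4% of the 18274 genes tested. The 4 mural calls, Acta2, Tagln, Myl9 and Myh11, were all higher (9.88% of all genes were called higher). Of the 22 endothelial members, Gkn3, Slco1a4 and Itm2a rose and Cldn5, Flt1 and Slc16a1 fell (12.5% of all genes were called lower). The median log2 fold change was -0.01 over the endothelial members and 0.20 over the 11 mural members tested, against 0.00 over all genes tested. With the conflicting library counted by its treatment field, 3 members were called (Cldn5, Flt1 and Gkn3), and by its title 11.

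In libraries labelled knockout, more endothelial genes fell than rose after CSDS. There 11 of 33 members were called, against 15.0% of 18259 genes. Of the 22 endothelial members, 9 fell (8.88% of all genes were called lower) and Slco1a4 rose (6.17% were called higher), and 12 were not called. The estimate was below 0 for 19 of the 22 and for 9547 of 18259 genes. Vtn fell and was the only mural member called. The medians were -0.17 over the endothelial and -0.13 over the mural members, against -0.01 over all genes. Counting the conflicting libraries by treatment field left 2 members called, Cdh5 and Pecam1, while by title 9 were called. Leaving out control 6, control 8 or CSDS 4 left 7 members called, and leaving out CSDS 1, 2 or 5 left 6.

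**Figure D1:**
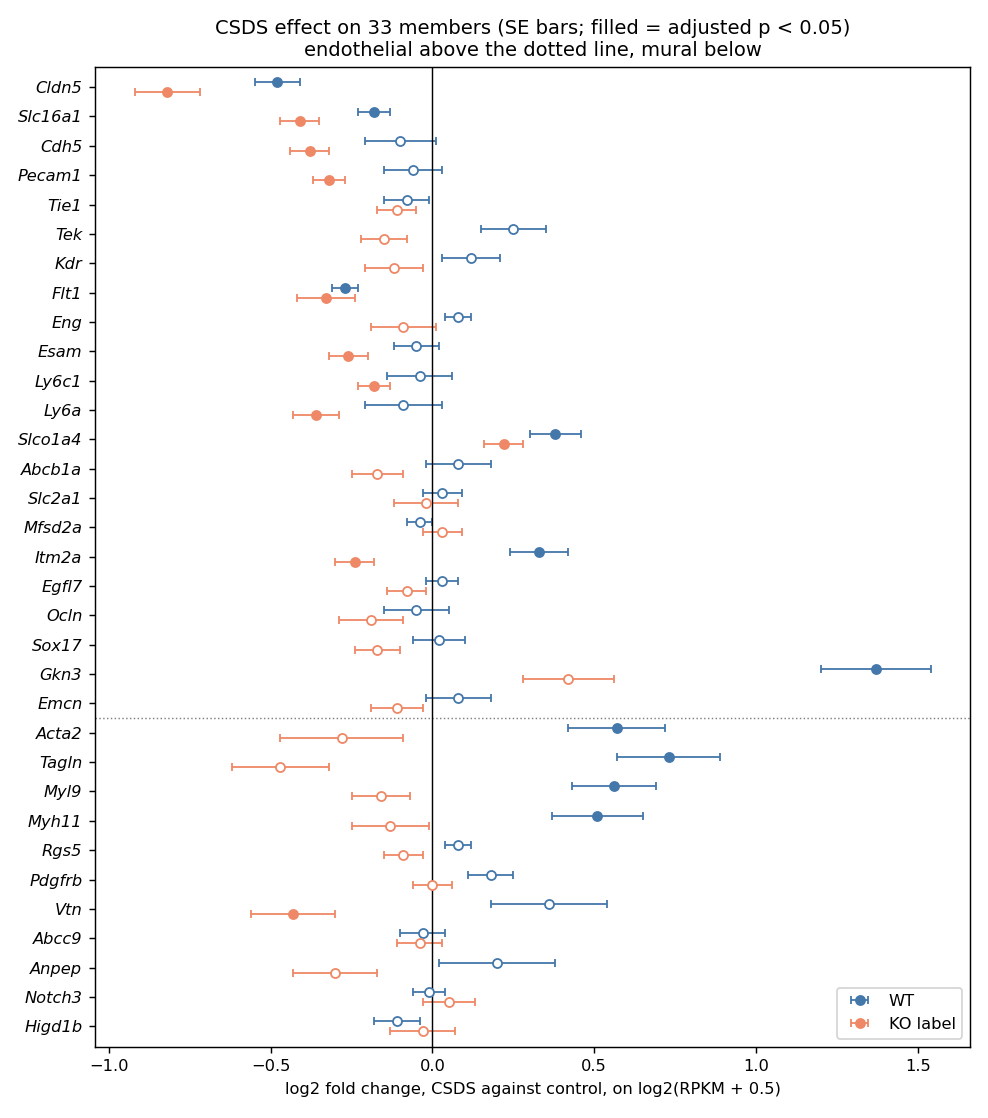
Log2 fold change of CSDS against control (x axis, on log2(RPKM + 0.5)) for the 33 members tested, in WT (blue) and under the knockout label (orange), with SE bars; filled points passed an adjusted p of 0.05. Acta2, Tagln, Myl9 and Myh11 lie above 0 in WT and below 0 under the knockout label, and Cldn5 lies below 0 in both, at -0.48 and -0.82.

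The junction genes come first. Cldn5 (claudin 5; ENSMUSG00000041378, chromosome 16, 18776847 to 18778262, mm10, + strand) encodes the main sealing protein of endothelial tight junctions and was covered by about 646 to 1861 reads per library. Its levels were 16.2, 18.7, 17.0, 16.9 and 19.7 RPKM in WT controls and 12.1, 12.6, 14.5, 12 and 11.8 RPKM in WT after CSDS. In the groups labelled knockout they were 25.8, 21.2, 24.8, 22.7 and 19.8 RPKM in controls and 11.9, 12.4, 14.8, 10.6 and 14.1 RPKM after CSDS. Every library after CSDS lay below every control of its genotype, and every knockout-labelled control lay above every WT control. The mean fell from 17.7 ± 1.46 to 12.6 ± 1.12 RPKM in WT, a log2 fold change of -0.48 ± 0.07 (adjusted p = 0.00129), and from 22.8 ± 2.49 to 12.8 ± 1.70 RPKM under the knockout label, a change of -0.82 ± 0.10 (adjusted p = 0.000996). The WT call held under every alternative run, with adjusted p between 0.000776 and 0.0268. The knockout-label call was lost (adjusted p = 0.103) when the conflicting libraries were counted as CSDS, and it held under the other alternatives.

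Occludin (Ocln), another tight junction protein, ranged from 2.92 to 4.70 RPKM and was called in no comparison. Cdh5, the VE-cadherin of endothelial adherens junctions, stood at 2.75, 3.54, 3.36, 2.97 and 4.58 RPKM in WT controls and 3.14, 2.77, 3.62, 2.97 and 3.25 RPKM in WT after CSDS, and these groups overlapped. The groups labelled knockout held 3.69, 3.64, 3.97, 4.30 and 3.30 RPKM in controls and 2.87, 2.68, 2.91, 2.70 and 2.72 RPKM after CSDS, with no overlap. Cdh5 thus fell there by 0.38 ± 0.06 (log2, adjusted p = 0.00327), while its WT change was -0.10 ± 0.11 (adjusted p = 0.561).

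Pecam1 (CD31), an adhesion molecule of endothelial contacts, had the same layout. WT controls held 2.63, 2.89, 3.08, 2.97 and 3.79 RPKM and WT libraries after CSDS 3.04, 2.54, 3.26, 2.54 and 3.17 RPKM. Knockout-labelled controls held 3.52, 2.97, 3.43, 3.29 and 3.27 RPKM and those after CSDS 2.74, 2.45, 2.57, 2.37 and 2.58 RPKM. The groups overlapped in WT (log2 change -0.06 ± 0.09, adjusted p = 0.643) and did not overlap under the knockout label, where Pecam1 fell by 0.32 ± 0.05 (adjusted p = 0.00354). Cdh5 and Pecam1 kept their knockout-label call under every alternative and every left-out library.

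Esam, an endothelial adhesion molecule of the junction, ranged from 3.56 to 5.08 RPKM and fell under the knockout label by 0.26 ± 0.06 (adjusted p = 0.0130) with no overlap of the groups. In all, 6 endothelial members had groups without overlap there, all lower after CSDS, against 7.46% of all genes: Cldn5, Slc16a1, Cdh5, Pecam1, Esam and Itm2a. In WT the groups of 5 endothelial members did not overlap, against 17.1% of all genes in either direction: 3 were higher (7.49% of all genes) and 2 lower (9.65%).

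Among receptors, Flt1 changed and Kdr, Tek and Tie1 were not called. Flt1 encodes VEGF receptor 1, which binds VEGF and in its soluble form holds it away from Kdr, the main signalling VEGF receptor. WT controls held 5.45, 5.53, 5.56, 5.45 and 6.08 RPKM of Flt1 and WT libraries after CSDS 4.65, 4.46, 4.86, 4.45 and 4.42 RPKM, with no overlap. The fall was 0.27 ± 0.04 on the log2 scale (adjusted p = 0.00142) and held under every alternative. Controls labelled knockout held 5.88, 5.74, 6.38, 6.43 and 4.27 RPKM and their CSDS counterparts 4.45, 4.73, 4.59, 3.98 and 4.38 RPKM. The groups overlapped only through control 10, the library of female pattern. Flt1 fell there by 0.33 ± 0.09 (adjusted p = 0.0389), a call lost when any library other than control 10 was left out (adjusted p up to 0.0925) and stronger without control 10 (adjusted p = 0.00156).

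Kdr ranged from 1.79 to 2.86 RPKM, and its changes were 0.12 ± 0.09 in WT and -0.12 ± 0.09 under the knockout label, the second called without control 10 (-0.21, adjusted p = 0.0480). Tek and Tie1 encode the Tie receptors, through which angiopoietins steady the vessel wall. Tek, between 2.23 and 3.74 RPKM, changed by 0.25 ± 0.10 in WT (adjusted p = 0.102) and by -0.15 ± 0.07 under the knockout label (adjusted p = 0.176). Without control 10 of each genotype both passed, with adjusted p = 0.00799 and adjusted p = 0.0459. Tie1 (1.97 to 2.68 RPKM) and Eng, a co-receptor for TGF-beta family ligands (3.65 to 5.28 RPKM), were called in no comparison.

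The barrier's transporters went separate ways. Slc16a1 carries lactate and other monocarboxylates and is also made by other brain cells. It stood at 8.55, 9.25, 8.64, 8.02 and 9.15 RPKM in WT controls and 7.02, 7.46, 8.15, 7.99 and 7.46 RPKM in WT after CSDS, groups that overlapped between the lowest control and the highest CSDS library. Its values under the knockout label were 10.3, 9.66, 9.36, 10.3 and 9.69 RPKM in controls and 6.97, 7.50, 7.76, 6.32 and 8.03 RPKM after CSDS, with no overlap. Slc16a1 fell by 0.18 ± 0.05 in WT (adjusted p = 0.0214) and by 0.41 ± 0.06 under the knockout label (adjusted p = 0.00225). The WT call was lost without WT control 7 (adjusted p = 0.0503).

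Slco1a4, an organic anion transporter that carries thyroid hormone and drugs, rose under both genotype labels. WT controls held 10.1, 12.4, 12.2, 10.6 and 14.0 RPKM and WT libraries after CSDS 15.6, 14.8, 15.4, 14.6 and 17.2 RPKM, all above the controls. Knockout-labelled controls held 12.3, 11.6, 14.9, 13.9 and 12.6 RPKM and those after CSDS 15.2, 14.9, 15.3, 14.9 and 15.9 RPKM, where control 8 reached into the CSDS range. The log2 changes were 0.38 ± 0.08 in WT (adjusted p = 0.00826) and 0.22 ± 0.06 under the knockout label (adjusted p = 0.0319). The knockout-label call was lost when 1 of 7 libraries was left out, namely controls 6 and 7 and each of the 5 CSDS libraries, with adjusted p up to 0.0721.

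Slc2a1, the glucose transporter of the barrier, ranged from 22.8 to 35.3 RPKM and changed by 0.03 ± 0.06 in WT and -0.02 ± 0.10 under the knockout label, neither called. Abcb1a, the P-glycoprotein efflux pump, ranged from 6.00 to 9.50 RPKM and was called in no comparison. Mfsd2a imports lipid-bound docosahexaenoic acid and holds back vesicle traffic across the endothelium. It ranged from 7.29 to 10.4 RPKM, and CSDS changed it by -0.04 ± 0.04 in WT and 0.03 ± 0.06 under the knockout label, neither called.

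Itm2a, an integral membrane protein abundant in brain endothelium and encoded on the X chromosome, was called in opposite directions. Its values were 19.2, 25.3, 23.4, 20 and 27.3 RPKM in WT controls and 27.9, 27.9, 31.0, 28.0 and 29.9 RPKM in WT after CSDS, all CSDS libraries being higher. Libraries labelled knockout held 26.9, 26.1, 29.6, 33.9 and 28.5 RPKM in controls and 25.3, 24.9, 25, 22.8 and 24.0 RPKM after CSDS, all CSDS libraries being lower. Itm2a rose by 0.33 ± 0.09 in WT (adjusted p = 0.0230) and fell by 0.24 ± 0.06 under the knockout label (adjusted p = 0.0308). The difference of these effects was -0.57 ± 0.11 with adjusted p = 0.0523. Leaving out WT control 9, WT CSDS 3 or WT CSDS 5 raised the WT adjusted p to at most 0.0552, and leaving out knockout-labelled control 8 or CSDS 1, 2, 4 or 5 raised that under the knockout label to at most 0.0755. The WT call was also lost with the conflicting library by treatment field (adjusted p = 0.233). The knockout-label call was lost without the filter and under either label of the conflicting libraries (adjusted p up to 0.217). In the authors' deposited edgeR results, whose controls include those libraries, the false discovery rate of Itm2a was 0.000295 in WT and 0.212 under the knockout label.

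Gkn3, a gastrokine gene expressed in brain arterial endothelium, had the largest change of the members in WT. WT controls held 1.11, 1.32, 1.25, 1.66 and 1.24 RPKM and WT libraries after CSDS 2.89, 5.36, 5.5, 4.87 and 2.98 RPKM. The lowest CSDS library was above the highest control, and the mean rose from 1.32 ± 0.206 to 4.32 ± 1.29 RPKM. The log2 change of Gkn3 was 1.37 ± 0.17 (adjusted p = 0.000871) and held under every alternative. With the knockout label, Gkn3 was 2.02, 2.17, 2.13, 1.93 and 3.08 RPKM in controls and 3.67, 3.21, 3.94, 2.24 and 3.03 RPKM after CSDS, with overlap, a change of 0.42 ± 0.14 (adjusted p = 0.0652). That change of Gkn3 was called without control 10 (0.52, adjusted p = 0.0185), without CSDS 4 (0.53, adjusted p = 0.0257) and with the conflicting libraries by title (0.67, adjusted p = 0.0431), and the adjusted p was 0.937 with them by treatment field. The depth behind Gkn3 was about 40 to 249 reads per library.

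Ly6a (Sca-1) and Ly6c1 encode surface proteins of the Ly6 family, whose members are similar enough in sequence that their reads may be shared, so both are uncertain. Ly6a stood at 19.0, 17.7, 16.7, 20 and 25.2 RPKM in WT controls and 20.6, 16.3, 19.5, 15.3 and 20.5 RPKM in WT after CSDS, and these groups overlapped. The knockout-labelled groups held 21.5, 16.7, 20.5, 20.7 and 23.6 RPKM in controls and 16.8, 15.5, 15.3, 15.9 and 15.8 RPKM after CSDS, where only control 7 lay within the CSDS range. Ly6a fell there by 0.36 ± 0.07 (adjusted p = 0.0110). Ly6c1, from 24.0 to 36.2 RPKM, fell under the knockout label by 0.18 ± 0.05 (adjusted p = 0.0436), a call lost when any library other than control 7 was left out (adjusted p up to 0.0995). Egfl7, a secreted vessel factor (4.96 to 6.53 RPKM), Sox17, a transcription factor of arterial endothelium (1.08 to 1.60 RPKM), and Emcn, the surface mucin endomucin (0.826 to 1.47 RPKM), were called in no comparison. Without knockout-labelled control 7 the change of Sox17 under that label passed (-0.22, adjusted p = 0.0455).

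**Figure D2:**
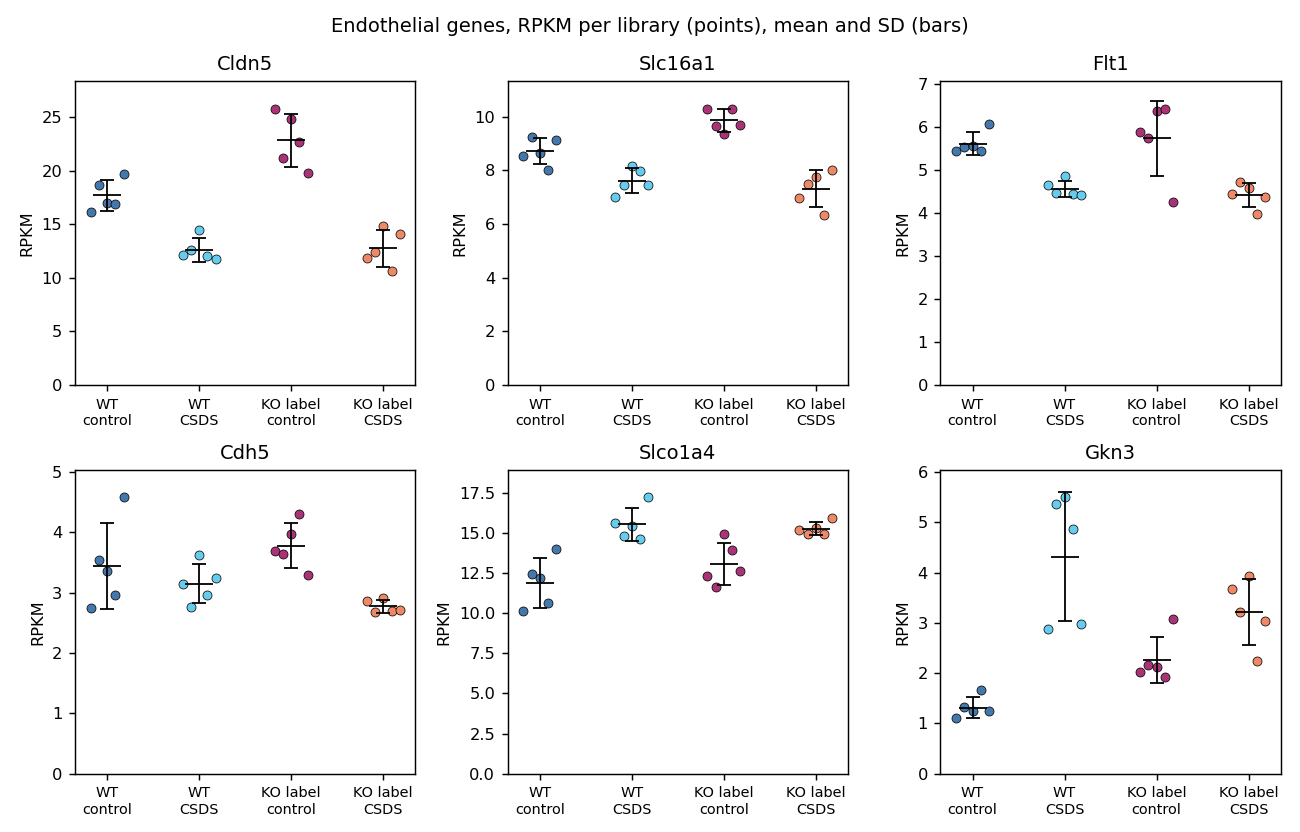
RPKM of 6 endothelial genes (y axis, from 0) in each library of the 4 groups; points are libraries and bars the mean and SD. Cldn5 is lower after CSDS in both genotypes without overlap, Cdh5 is lower without overlap in the groups labelled knockout, and Gkn3 rises from 1.11 to 1.66 RPKM in WT controls to 2.89 to 5.5 RPKM after CSDS.

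The contractile genes of smooth muscle were the mural members called in WT. Acta2 encodes smooth muscle alpha-actin (ENSMUSG00000035783, chromosome 19, 34241090 to 34255590, mm10, − strand). It stood at 4.17, 4.19, 3.84, 4.01 and 6.74 RPKM in WT controls and 5.91, 6.18, 8.62, 5.96 and 8.23 RPKM in WT after CSDS, and the groups overlapped only through control 10. Acta2 rose in WT by 0.57 ± 0.15 (adjusted p = 0.0258). In libraries labelled knockout Acta2 was 7.26, 4.30, 7.29, 8.40 and 6.44 RPKM in controls and 5.37, 4.20, 8.04, 4.13 and 5.70 RPKM after CSDS, with overlap and a change of -0.28 ± 0.19 (adjusted p = 0.364). The WT call was lost without any of controls 6, 7, 8 and 9 or CSDS 3 and 5, with adjusted p up to 0.0600, and was stronger without control 10 (0.70, adjusted p = 0.00345).

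Tagln encodes transgelin (SM22 alpha), an actin-binding protein of smooth muscle (ENSMUSG00000032085, chromosome 9, 45929619 to 45936058, mm10, − strand). WT controls held 2.54, 2.70, 3.41, 3.06 and 4.93 RPKM and WT libraries after CSDS 5.21, 5.19, 7.35, 4.66 and 6.57 RPKM, where CSDS 4 lay below control 10. Tagln rose in WT by 0.73 ± 0.16 (adjusted p = 0.0109), from 3.33 ± 0.958 to 5.80 ± 1.12 RPKM. Knockout-labelled controls held 5.5, 3.52, 5.89, 7.04 and 5.61 RPKM and those after CSDS 4.11, 3.12, 4.53, 3.43 and 3.78 RPKM. Of these controls only control 7 lay within the CSDS range, and the change was -0.47 ± 0.15 (adjusted p = 0.0610). Without control 7 Tagln was called there (-0.60, adjusted p = 0.00703). The libraries do not keep strand, and Tagln shares 108 of its 1988 exon bases with Pcsk7 and 1241 with the gene model Gm48529, both on the opposite strand in GENCODE, so its reads are uncertain. Pcsk7 averaged 5.99 and 6.55 RPKM in WT controls and CSDS and 5.97 and 6.80 RPKM in the groups labelled knockout. The symbol Gm48529 was not among the genes measured, so no level can be given for it. The part of these overlaps in the Tagln result was not tested.

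Myl9, the regulatory light chain of smooth muscle myosin (ENSMUSG00000067818, chromosome 2, 156775420 to 156781658, mm10, + strand), carries the exact CArG box printed above. It stood at 5.92, 6.49, 7.15, 6.58 and 9.22 RPKM in WT controls and 9.81, 9.57, 13.3, 8.61 and 12.1 RPKM in WT after CSDS, where again only control 10 reached the CSDS range. In knockout-labelled mice Myl9 was 10.4, 7.79, 10.1, 11.7 and 10.1 RPKM in controls and 8.93, 8.09, 10.0, 8.31 and 9.10 RPKM after CSDS, with overlap. Myl9 rose in WT by 0.56 ± 0.13 (adjusted p = 0.0139) and changed by -0.16 ± 0.09 under the knockout label (adjusted p = 0.295). Without knockout-labelled control 7 the second change passed (-0.24, adjusted p = 0.0421).

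Myh11, the smooth muscle myosin heavy chain, was at 1.16, 1.48, 1.48, 1.35 and 2.12 RPKM in WT controls and 2.12, 2.26, 3.12, 1.84 and 2.48 RPKM in WT after CSDS, overlapping through control 10 and CSDS 4. Knockout-labelled libraries were at 2.13, 1.83, 2.41, 2.70 and 1.72 RPKM in controls and 1.89, 1.53, 2.56, 1.83 and 1.85 RPKM after CSDS. Myh11 rose in WT by 0.51 ± 0.14 (adjusted p = 0.0234), a call lost without control 6, control 9 or CSDS 5 (adjusted p up to 0.0535). Its change under the knockout label was -0.13 ± 0.12 (adjusted p = 0.525). The fifth contractile gene, Cnn1, averaged 0.173 ± 0.0750 RPKM in WT controls and 0.302 ± 0.0970 RPKM in WT after CSDS and was not tested here.

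Summed over these 5 contractile genes, WT controls 6 to 9 held 13.9 to 16.1 RPKM and control 10 held 23.3 RPKM. WT libraries after CSDS held 21.4 to 32.8 RPKM, knockout-labelled controls 17.6 to 30.3 RPKM and knockout-labelled libraries after CSDS 17.1 to 25.4 RPKM. In each group 1 library was highest for all 5 genes: control 10 and CSDS 3 in WT, control 9 and CSDS 3 under the knockout label. So the library that was highest for 1 contractile gene was highest for the others too.

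Vtn encodes vitronectin, a matrix protein that brain pericytes secrete. WT controls held 21.2, 22.2, 25.1, 20.7 and 39.2 RPKM and WT libraries after CSDS 31.5, 25.7, 39.7, 28.4 and 37.5 RPKM. Control 10 was again within the CSDS range, and the change was 0.36 ± 0.18 (adjusted p = 0.172), or 0.52 with adjusted p = 0.0161 without control 10. Knockout-labelled controls held 31.3, 25.6, 34.5, 42.6 and 35.9 RPKM and those after CSDS 26.5, 21.7, 29.6, 22.2 and 24.4 RPKM. Only control 7 lay within that CSDS range, and Vtn fell by 0.43 ± 0.13 (adjusted p = 0.0425). This call was lost when any library other than control 7 or CSDS 3 was left out (adjusted p up to 0.0983).

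The other pericyte members were called in no comparison. Rgs5, a regulator of G protein signalling and a widely used pericyte marker, ranged from 18.4 to 24.5 RPKM and changed by 0.08 ± 0.04 in WT and -0.09 ± 0.06 under the knockout label, neither called. Pdgfrb, the PDGF receptor through which endothelial cells recruit pericytes, ranged from 3.35 to 4.77 RPKM and changed by 0.18 ± 0.07 in WT (adjusted p = 0.0762, and 0.0140 without control 10). Abcc9, a subunit of the vascular potassium channel (1.09 to 1.63 RPKM), Notch3, the mural Notch receptor (1.37 to 1.91 RPKM), Anpep, aminopeptidase N (0.531 to 1.54 RPKM), and Higd1b (1.57 to 2.41 RPKM) were called in no comparison.

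**Figure D3:**
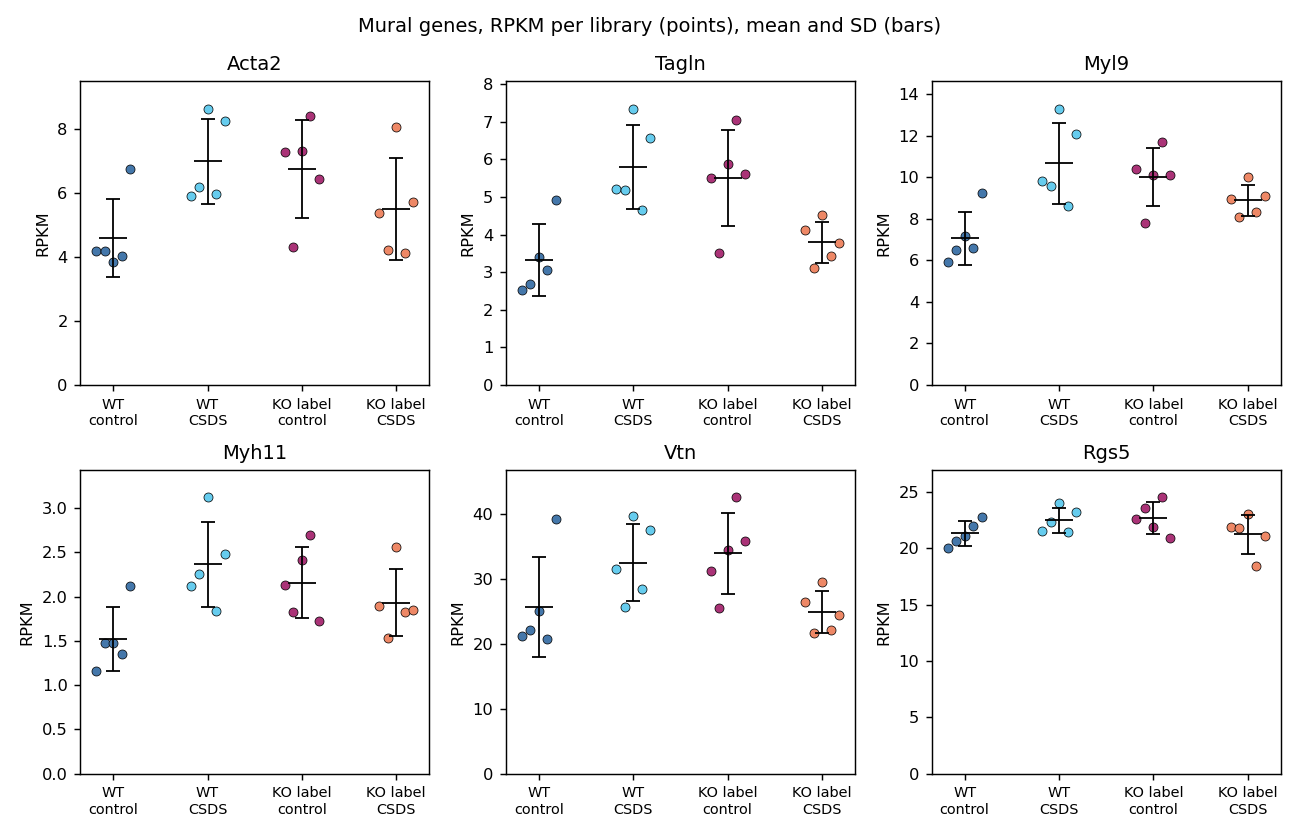
RPKM of 6 mural genes (y axis, from 0) in each library of the 4 groups; points are libraries and bars the mean and SD. Acta2, Tagln, Myl9 and Myh11 are higher after CSDS in WT except for control 10, the rightmost WT control point, while Rgs5 stays between 18.4 and 24.5 RPKM in every library.

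The difference between the effects of CSDS under the 2 genotype labels was tested as an interaction over 20 libraries. Tagln was the only member called of 33, against 0.148% of 18263 genes in either direction and 0.0876% in this one, at -1.20 ± 0.24 (adjusted p = 0.0498). The next members by size were Gkn3 at -0.95 ± 0.23 (adjusted p = 0.107), Acta2 at -0.85 ± 0.26 (adjusted p = 0.199), Vtn at -0.79 ± 0.23 (adjusted p = 0.174) and Myl9 at -0.71 ± 0.17 (adjusted p = 0.0967). The estimate was below 0 for 30 of 33 members and for 9468 of 18263 genes, with medians of -0.20 over the endothelial members, -0.49 over the mural members and 0.00 over all genes. The unadjusted p (limma) was under 0.05 for 15 of 33 members, against 2092 of 18263 genes tested. For Cldn5, Cdh5 and Pecam1 the differences were -0.34 ± 0.12, -0.29 ± 0.13 and -0.25 ± 0.11. Their unadjusted limma p was 0.0118, 0.043 and 0.0291. None was called after adjustment, so the effects of these genes were not shown to differ between the genotype labels. The Tagln call was lost with a pseudocount of 0.1 (adjusted p = 0.0527), without the filter (adjusted p = 0.0639), under either label of the conflicting libraries (adjusted p = 0.332 by treatment field, 0.175 by title) and in 14 of 20 fits that left out 1 library (adjusted p up to 0.107). Without the controls numbered 10 the interaction called 6 members: Tek, Itm2a, Tagln, Myl9, Myh11 and Vtn. Without WT control 10 alone it called 5, the same but Myh11.

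The genotype labels were also compared among the controls and after CSDS, in the same fit and so with the same libraries. Among controls, 6 of 33 members were called, against 3.95% of 18263 genes, and 5 of them were higher, against 2.45%. Cldn5 (0.35 ± 0.09, adjusted p = 0.0282), Itm2a (0.33 ± 0.08, adjusted p = 0.0281), Gkn3 (0.60 ± 0.17, adjusted p = 0.0491), Tagln (0.65 ± 0.17, adjusted p = 0.0334) and Myl9 (0.48 ± 0.12, adjusted p = 0.0324) were higher under the knockout label. Mfsd2a was lower, at 7.92 ± 0.720 RPKM against 9.67 ± 0.535 RPKM in WT (-0.27 ± 0.05, adjusted p = 0.00582), where 1.5% of all genes were called lower. The groups did not overlap for Cldn5, Slc16a1 and Gkn3, all higher under the knockout label, against 3.19% of all genes. With the conflicting libraries counted by treatment field the calls came down to Mfsd2a alone, and by title 4 members were called. A fit of the control libraries alone called 1 member, Gkn3. Without the controls numbered 10, 11 members were called. Leaving out WT control 6 or 9 or knockout-labelled control 8 or 9 left 1 member called, WT control 8 or knockout-labelled control 6 left 2, and WT control 7 or knockout-labelled control 10 left 3.

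After CSDS, Mfsd2a was the only member called of 33, against 2.24% of 18263 genes in either direction and 0.734% lower. It stood at 8.10 ± 0.459 RPKM under the knockout label and 9.38 ± 0.378 RPKM in WT, with no overlap (-0.20 ± 0.05, adjusted p = 0.0487). The groups also did not overlap for Itm2a (-0.24 ± 0.08, adjusted p = 0.139) and Tagln (-0.54 ± 0.17, adjusted p = 0.101), 3 members in all and all lower under the knockout label, against 2.47% of all genes. The Mfsd2a call was lost in 13 of 20 fits that left out 1 library (adjusted p up to 0.125). Cldn5 differed by 0.01 ± 0.09 after CSDS, with a 95% interval from -0.17 to 0.19.

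Further genes of the vessel wall were read from lists of known members. Over all genes tested, 9.88% were called higher and 12.5% lower in WT, and 6.17% higher and 8.88% lower under the knockout label. Of 13 other tight junction genes tested, Jam2, a junctional adhesion molecule, rose in WT (0.16 ± 0.05) and Tjp1, the scaffold ZO-1, fell in WT (-0.08 ± 0.02) and under the knockout label (-0.17 ± 0.04). Under that label Lsr, a protein of tricellular contacts, also fell (-0.50 ± 0.11), and no other member of the list was called. Among 20 other barrier transporters, 4 rose and 2 fell in WT, including Tfrc, the transferrin receptor (0.40 ± 0.07), the taurine transporter Slc6a6 (0.20 ± 0.04) and the glutamine transporter Slc38a5 (0.53 ± 0.11). Under the knockout label Tfrc rose (0.29 ± 0.07), and Slc19a3 (-0.28 ± 0.06), which carries thiamine, and Slco2b1 (-0.19 ± 0.05) fell.

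Of 28 other endothelial identity genes, 5 rose and 4 fell in WT, where 22.4% of all genes were called, among them Clec14a (0.48 ± 0.10) and Calcrl, a receptor for adrenomedullin and CGRP (0.28 ± 0.07). None of the 28 rose and 7 fell under the knockout label. Nos3, the endothelial nitric oxide synthase, fell in both, by 0.33 ± 0.08 and 0.49 ± 0.09. Klf4 and Foxf2, transcription factors of endothelial quiescence and of the barrier, fell under the knockout label by 0.60 ± 0.07 and 0.36 ± 0.07, and in WT by 0.42 ± 0.11 and 0.22 ± 0.07.

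In the signalling lists, 1 of 11 VEGF, angiopoietin and apelin genes was called in WT, Apln, which fell by 0.24 ± 0.06. Under the knockout label Angptl4 and Angpt2, an antagonist of the Tek receptor, fell by 0.78 ± 0.14 and 0.44 ± 0.11, again among 11 tested. The Wnt genes of the barrier gave 3 higher and 2 lower of 16 in WT, led by the ligand Ndp (0.38 ± 0.05), Apcdd1 (0.27 ± 0.05) and Reck (0.39 ± 0.08). The 2 lower in WT were Wnt7a and Nkd1. Under the knockout label, of 15 tested, Ndp rose by 0.36 ± 0.09 and the ligand Wnt7a fell by 0.24 ± 0.07. Of 14 Notch and arterial genes none rose and 3 fell in each genotype: Hes1, a Notch target (-0.33 ± 0.06), the ligand Dll1 (-0.21 ± 0.05) and Notch1 (-0.13 ± 0.04) in WT, and Hes1 (-0.49 ± 0.08), Efnb2 (-0.17 ± 0.04) and Sema3g (-0.33 ± 0.09) under the knockout label. Vwf, von Willebrand factor, was the only venous and leukocyte adhesion gene of 8 called in WT (0.42 ± 0.13), and none was called by limma under the knockout label, where 2 of 8 had an unadjusted p under 0.05.

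Of the 14 other pericyte and PDGF genes tested in WT, 5 rose and none fell, against 9.88% and 12.5% of all genes, led by Ifitm1 (0.86 ± 0.16), Atp13a5 (0.29 ± 0.07) and Cspg4, the NG2 proteoglycan (0.16 ± 0.04). Of 13 tested under the knockout label, Cspg4 rose (0.21 ± 0.06), and the transcription factors Tbx18 (-0.40 ± 0.10) and Foxc1 (-0.47 ± 0.12) fell. Other smooth muscle genes gave 1 call of 10 in WT, Cnn2 (0.26 ± 0.07), and 2 of 11 under the knockout label. These were Srf, serum response factor itself (-0.13 ± 0.03), and Cald1, the actin-binding caldesmon (-0.29 ± 0.08). In the basement membrane list of 16, Sparc rose in WT (0.19 ± 0.05) and Nid1, nidogen 1, fell under the knockout label (-0.39 ± 0.11). No gene of these lists was called by limma in the interaction, where the unadjusted p was under 0.05 for 0 of 13 tight junction genes at the low end and for 6 of 11 smooth muscle genes at the high end, against 2092 of 18263 genes tested.

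Markers of other cells also differed between the groups. Beside the counts below, 9.88% of all genes were called higher and 12.5% lower in WT. Under the knockout label the shares were 6.17% and 8.88%. Of 15 markers of meningeal and perivascular fibroblasts tested, cells that share the vessel surroundings with mural cells, 1 rose in WT, Pdgfra, and 8 fell under the knockout label, led by Dcn, Slc6a13 and Gjb2. Their summed level was 46.2 to 160 RPKM in WT controls, 93.5 to 134 RPKM in WT after CSDS, 83.3 to 152 RPKM in knockout-labelled controls and 53.9 to 92.0 RPKM in those after CSDS. All 5 red blood cell markers tested rose in WT, from a summed 206 to 297 RPKM to 559 to 2810 RPKM, and none was called by limma under the knockout label (2 of 5 at an unadjusted p under 0.05), where the sums were 260 to 377 RPKM in controls and 178 to 356 RPKM after CSDS. Of 6 perivascular macrophage markers tested, F13a1 and Mrc1 fell under the knockout label. Choroid plexus markers, none of 8 called by limma in either genotype and 0 of 8 at an unadjusted p under 0.05, summed to 76.6 to 5720 RPKM in WT controls, 3400 to 4380 RPKM in WT after CSDS, 734 to 5170 RPKM in knockout-labelled controls and 636 to 4400 RPKM in those after CSDS. In the interaction limma called none of these genes, while 13 of 15 fibroblast and 5 of 5 red blood cell markers had an unadjusted p under 0.05, against 2092 of 18263 genes tested. No gene of these lists was at 0 in every library of a group. The part of these cells in the endothelial and mural results was not tested.

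The summed endothelial members came to 184 to 230 RPKM in WT controls, 189 to 213 RPKM in WT after CSDS, 190 to 233 RPKM in knockout-labelled controls and 174 to 187 RPKM in those after CSDS. The last 2 groups did not overlap. For the mural members the corresponding sums were 64.2 to 96.4, 80.9 to 107, 76.1 to 108 and 67.5 to 88.2 RPKM, and all groups overlapped. The tissue label was met by the 8 hippocampus markers, whose sum was 198 to 233 RPKM over all 20 libraries and of which limma called none between CSDS and control (1 of 8 in WT and 2 of 8 under the knockout label at an unadjusted p under 0.05). Between the genotype labels Bok and C1ql2 were higher under the knockout label among controls, and Bok also after CSDS.

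**Figure D4:**
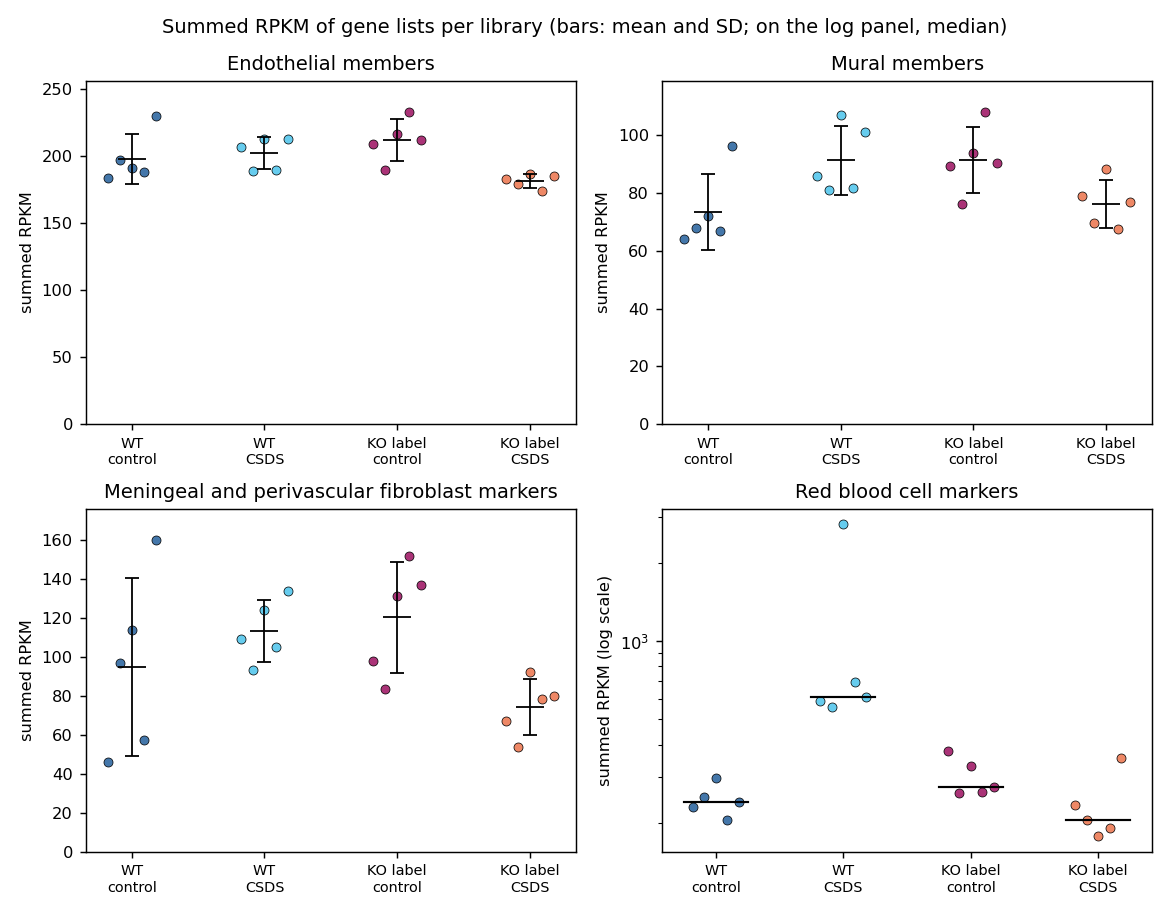
Summed RPKM per library (y axis; log scale for red blood cell markers) of the endothelial members, the mural members, fibroblast markers and red blood cell markers in the 4 groups; bars show the mean and SD, or the median on the log panel. Knockout-labelled libraries after CSDS lie at 174 to 187 RPKM for the endothelial members, below their controls, and fibroblast markers fall in the same groups to 53.9 to 92.0 RPKM.

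The authors' deposited table, whose controls include the 3 conflicting libraries, was set beside these counts. At a false discovery rate under 0.05, the authors' deposited table has 4 endothelial members higher and 3 lower after CSDS in WT, and 6 mural members higher. Under the knockout label the authors' deposited table has 2 endothelial members higher, 7 lower and no mural member past that threshold. By the authors' edgeR test Cnn1 passed in WT (log2 change 0.919, false discovery rate 0.0419) and not under the knockout label (-0.399, 0.475). Gkn3 passed under the knockout label (0.771, false discovery rate 0.00598). Itm2a, Ly6c1 and Vtn, called under that label here, did not pass in the authors' test (0.212, 0.282 and 0.172). Over the 17840 genes tested in the authors' deposited table, 1633 were higher and 2106 lower in WT, and 1508 higher and 1547 lower under the knockout label.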

How the data were processed

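Hippocampal RNA came from a lipid tissue kit, and poly(A) libraries, which do not keep strand, were read as 75 bp single-end reads, per the labels' protocols. Reads were aligned with STAR to mm10, per the submitters' processing notes; the annotation, the counter and the version of STAR were not given in the sources used here. The authors deposited RPKM values, 1 table per genotype with 39017 genes. Each table also holds, per the file headers, the authors' edgeR log2 fold changes, a likelihood ratio score, p-values and false discovery rates. Their fold changes run control over CSDS and were turned round. For 26 genes the symbols in the knockout-labelled table had become dates, so WT symbols were used.

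The 34 members and the gene lists were chosen with earlier results of these data known. Values of every library are given for members called in a comparison with an absolute log2 fold change of at least 0.3, and for Cldn5. From each other list up to 3 called genes of smallest p are named. Tests used limma 3.58.1 (limma-trend, R 4.3.3) on log2(RPKM + 0.5) for genes with a mean of at least 0.5 RPKM over the libraries fitted, two-sided, with Benjamini-Hochberg adjustment over all genes and a threshold of 0.05. The CSDS comparisons used the 10 libraries of a genotype, and the interaction and genotype comparisons all 20. The fit was tested on simulated data.

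Depth was estimated from 12003 single-exon genes, whose low values are whole multiples of 1 read; 94.1 to 95.7% of the values used came within 0.05 of a whole read. Reads per member are approximate, from GENCODE M21 exon lengths. Without strand, reads of overlapping genes cannot be told apart: exons of Eng, Abcb1a, Slc2a1, Egfl7, Sox17, Tagln, Abcc9 and Notch3 share bases with another gene. No pair of libraries was as alike as sampling noise allows (lowest ratio of the median chi-square to that noise 1.5). Knockout-labelled control 10 stood farthest from the rest, with a ratio of at least 6.01 to every other library. Knockout-labelled controls 6 to 9 lay at 2.0 to 3.03 from each other. Without control 10, limma called 3668 genes for CSDS under the knockout label, against 2747 with it. The labels number the libraries but do not name animals, so a p-value here reflects only how far these libraries spread. Alternatives were the pseudocount, the filter, the scaling, the conflicting labels, the libraries fitted, a replicate block and leaving out libraries. Protein sequences were not used here, and the list of other cell markers is not reported here in full.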

Additional observations from a re-analysis of the deposited data

Results flagged for a closer look

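WT control 10, a library of female pattern, lay far above the other 4 WT controls for 5 members: Flt1 at 6.08 RPKM, Ly6c1 at 36.2 RPKM, Abcb1a at 8.42 RPKM, Acta2 at 6.74 RPKM and Vtn at 39.2 RPKM. Knockout-labelled control 10, the other library of female pattern, lay far above its group for Gkn3 at 3.08 RPKM. In each case the gap to the nearest library, divided by the range of the group, exceeded Dixon's 95% critical value of 0.71 for 5 samples. Of 136 sets of 1 member in 1 group, 6 passed it, and chance alone passes about 1 in 20 such sets. Tagln differed between the genotype labels in its response to CSDS, by -1.20 on the log2 scale in the interaction test (limma, adjusted p = 0.0498), a call lost under 4 of 9 other settings and in 14 of 20 fits that left out 1 library.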

How the results depend on the processing

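Counted by treatment field, the 3 libraries of conflicting label left 3 members called by CSDS in WT (10 without them), 2 under the knockout label (11), 0 in the interaction (1) and 1 among controls (6); all genes called came to 1240 (4093), 143 (2747), 1 (27) and 399 (722). Counted by title, the interaction called 0 members and 98 genes, and the controls 1627 genes. Without the filter on low values, 6 members were called under the knockout label, 0 in the interaction, 3 among controls and 0 after CSDS. The interaction called 0 members with a pseudocount of 0.1, and 2 with a pseudocount of 1 or with median-ratio scaling, under which the genotype comparison after CSDS called 0. Without both controls numbered 10, the interaction called 6 members and 181 genes, the controls 11 members, and the comparison after CSDS 0 members and 629 genes. Fitted on its own 2 groups, the comparison among controls called 1 member and 209 genes, and that after CSDS 2 members. Leaving out 1 library gave 7 to 13 members called in WT, 6 to 12 under the knockout label, 0 to 5 in the interaction, 1 to 9 among controls and 0 to 1 after CSDS. WT and knockout-labelled libraries share numbers, but only 3 of 10 same-numbered pairs, the controls 6, 8 and 10, had deviations with a correlation over 0.1 (range -0.107 to 0.371), and in 4 of 10 the best partner had the same number. The libraries were therefore not taken as paired. With the replicate block the interaction called 1 member, the controls 3 (Cldn5, Itm2a and Gkn3 were not called) and the comparison after CSDS 0 (Mfsd2a was not called). No alternative reversed a called direction. The cause of these changes was not tested. Depth limits Cnn1 most, with a range of about 8 to 63 reads.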

Other observations

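Genes of other hippocampal cells were called as well, from lists of 8 markers each. In WT after CSDS 2 microglia, 3 astrocyte, 2 oligodendrocyte and 1 neuron marker were called, against 22.4% of all genes. Under the knockout label the counts were 1, 4, 0 and 3, against 15.0%. Among the microglia markers, P2ry12 rose in WT after CSDS and C1qa fell under the knockout label. The astrocyte water channel Aqp4, which sits on the end-feet that wrap vessels, fell in both genotypes, while Aldoc rose in both, among 8 astrocyte markers. Of 8 oligodendrocyte markers, Ermn and Mobp fell in WT and none was called by limma under the knockout label (2 of 8 at an unadjusted p under 0.05). The neuronal gene Rbfox3 fell in both, and the genes of GABA synthesis, Gad1 and Gad2, rose under the knockout label.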
